A study of Rattus norvegicus with 2 samples.

Results

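The heat shock proteins and the DNAJ (HSP40) cochaperones of the rat urinary bladder were examined here in DMA-induced tumors and in control tissue. Members were all genes whose symbol starts with Hspa, Hspb, Hspd, Hspe or Hsph and a number, with Hsp90, or with Dnaja, Dnajb or Dnajc and a number. The symbols were those of the platform annotation, and each gene was represented by 1 probe set with that symbol alone. This gave 102 of the 22093 genes of the arrays, of which RefSeq lists 71 as protein-coding and 31 as pseudogenes. Signals under 100 were treated as low, and 82 of the 102 members and 12074 of all genes reached 100 on at least 1 array.

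RNA came from male F344 rats, an inbred strain, aged 114 weeks, and was measured on 2 arrays. The Control array held RNA pooled from the bladders of 5 rats whose drinking water held 0 ppm DMA (dimethylarsinic acid), into which the body converts inorganic arsenic by methylation. The DMA-tumor array held RNA pooled from bladder carcinomas of 6 rats given 200 ppm DMA for 2 years from 10 weeks of age. The methods give a different number of tumors, and the tumors were classed by size without histology. With 1 array of pooled RNA per group there is no replicate check, no error and no p-value for any difference given here, and precision is limited by this number of arrays.

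Molecular chaperones bind unfolded or partly folded proteins and keep them from aggregating. HSP70 proteins bind short stretches of unfolded chains in a cycle driven by ATP, which the DNAJ proteins start through their J domain and the HSP110 proteins and other exchange factors reset. HSP90 acts later, on nearly folded clients such as kinases and steroid receptors, the small heat shock proteins hold clients without using ATP, and the mitochondrial chaperonin HSP60 with its lid HSP10 folds imported proteins in a closed chamber. Heat shock factors switch on many of these genes during proteotoxic stress, while each class also has members made at all times. Arsenic compounds are known inducers of the heat shock response in cultured cells.

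Most chaperone genes had nearly the same signal in the tumor pool as in the Control pool. The median difference over the 82 members, as log2 signal of DMA-tumor minus Control, was 0.05, and the middle of their distribution ran from -0.14 to 0.18 (lower to upper quartile). Over all 12074 genes the median was -0.08 and the quartiles were -0.50 and 0.33. The difference was within 0.5 for 63 members (76.8%), against 55.8% of all genes. Among protein-coding genes alone it was within 0.5 for 72.7% of the members, against 55.9% of all. Signals were higher in the tumors for 47 members and lower for 35, a balance that turned with the scaling of the arrays, since the median of the members was -0.24 after quantile normalization and -0.11 after removal of a loess trend. The 20 members under 100 on both arrays, 16 of them protein-coding, read from 19.5 to 97.9 and were not compared.

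Few chaperones were at least 2-fold higher, and the share that was lower was nearer to that of all genes. 1 member (1.22%) was at least 2-fold higher in the tumors, against 8.87% of all genes, and 5 members (6.10%) were at least 2-fold lower, against 10.5%. The higher one was Hspd1-ps2, and the lower ones were Dnajb3, Hspb1, Hspa1a, Hspb6 and Dnajc16. Of the 55 protein-coding members, 0 were 2-fold higher and 5 (9.09%) lower, against 8.34% and 11.0% of all protein-coding genes. The share of coding members that was lower was thus near that of all coding genes. The methods called genes by a ratio of 2 together with a Z-score of 2, but give no formula for the Z-score. Here it was taken from the log2 differences of all kept genes, so these calls may differ from those of the study. The limits came to a log2 difference of 1.97 or more, or of -2.11 or less. With the filter used here, no member met both criteria, which 2.53% of all genes met as higher and 2.37% as lower. This count turned on the filter, since Dnajb3 met both criteria as lower when a signal of 100 was required on both arrays, as it did in 3 other settings (no filter, 32 on 1 array, or signals raised to 100). At a ratio of 1.5 alone, 6 of the 82 members were higher and 8 lower, against 16.7% and 21.5% of all genes. Of the 37 members with a mean signal of at least 1000, none was 2-fold higher or lower, whereas 9.56% and 11.1% of the 4361 genes with such signals were. In that range 86.5% of the members and 54.4% of the genes were within 0.5. All 6 members past 2-fold had mean signals under 1000. As a measure of noise, 1276 olfactory and vomeronasal receptor genes, taken as silent in bladder, had differences with an SD of 0.34 and 95% of them between -0.81 and 0.52. No signal filter was applied to these genes. Their span therefore does not give the error of genes with high signals, nor the variation between pools. Outside that span were 12 members. The 7 above it were Hspd1-ps2, Hspd1, Hspa14, Dnajb6, Hspd1-ps4, Dnajc21 and Dnajb4, and the 5 below it were the 2-fold lower genes.

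**Figure D1:**
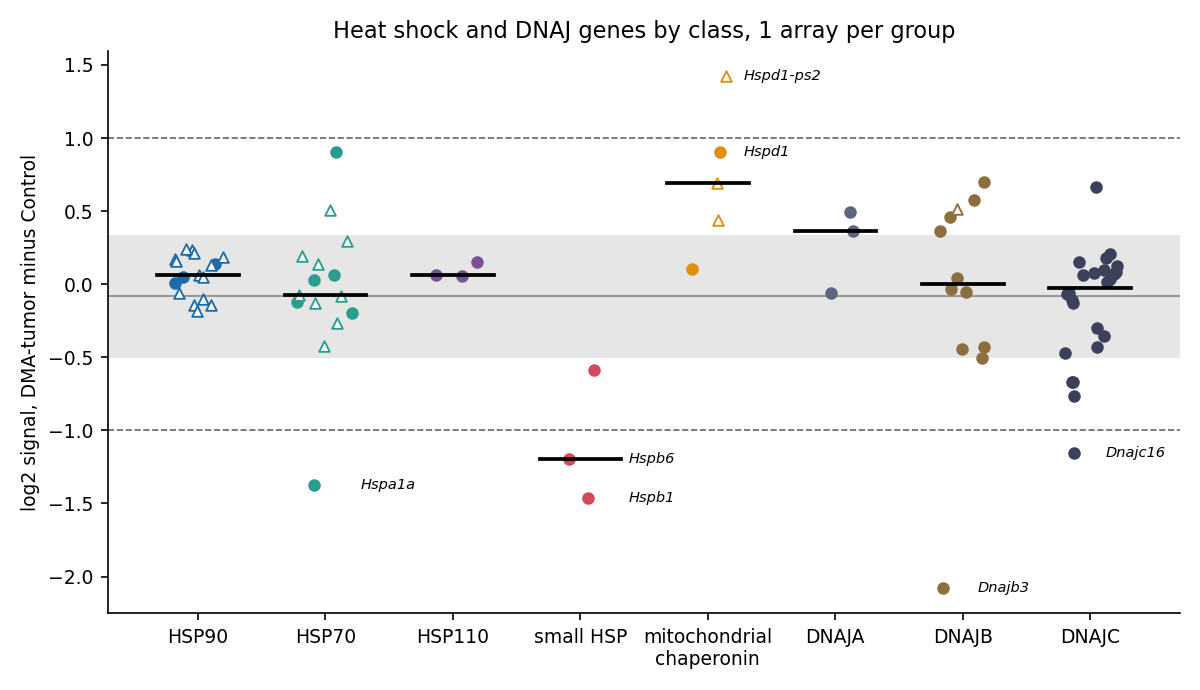
Log2 signal, DMA-tumor minus Control (y axis), of each of the 82 members by chaperone class (x axis), 1 array per group. Filled points are protein-coding genes, open triangles pseudogenes and black bars class medians. The grey line and band are the median and quartiles of all 12074 genes, and dashed lines mark 2-fold. Most points lie in the band, the small HSP genes lie below it and most of the mitochondrial chaperonin genes above it.

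**Figure D2:**
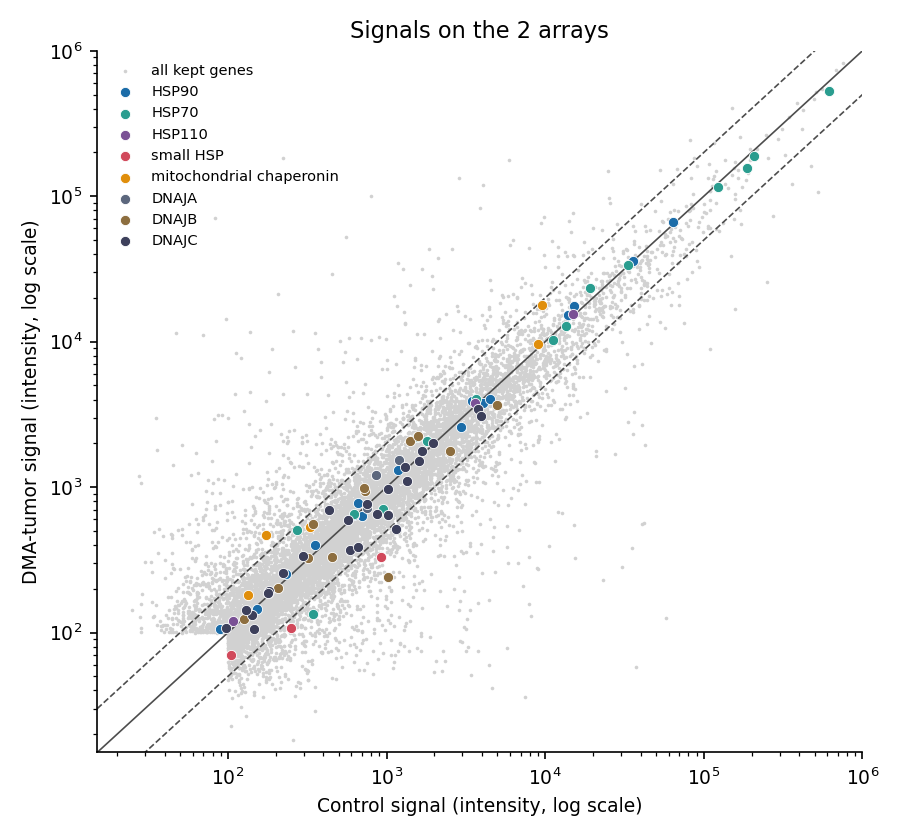
Signal on the DMA-tumor array (y axis) against the Control array (x axis), both as intensity on log scales, for the members (coloured by class) and all kept genes (grey). The solid line marks equal signals and the dashed lines 2-fold. The members with high signals follow the line of equal signals, and the 6 that pass 2-fold have mean signals under 1000.

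The HSP90 genes were level in the deposited signals, although other scalings moved them below 0. Hsp90ab1, the constitutive cytosolic HSP90, read 63943 in Control and 66159 in the tumors, a log2 difference of 0.05. Hsp90aa1, its heat-inducible paralog, read 35825 and 36005 (0.01), and a second probe set of the gene read 20427 and 19831 (-0.04). Hsp90b1 (GRP94), the HSP90 of the endoplasmic reticulum (ER), read 13902 and 15266 (0.14). All 3 coding genes thus differed by less than the SD of the silent receptor genes, but that SD does not give the error of genes with high signals. After quantile normalization Hsp90ab1 was at -0.85, Hsp90aa1 at -0.63 and Hsp90b1 at -0.19. The 17 HSP90 members with a signal included 14 pseudogenes, and the class ranged from -0.19 (Hsp90aa1-ps16, 2962 and 2603) to 0.24 (Hsp90b1-ps2, 89.0 and 105), with a median of 0.06. Probe sets for pseudogenes can also bind the RNA of the near-identical parent gene, so their signals are not separate measurements of the pseudogenes.

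Among the HSP70 genes, the housekeeping members differed little in the deposited signals. After removal of the loess trend Hspa8 was at -1.45, Hspa9 at -0.62 and Hspa5 at -0.52. Quantile normalization moved Hspa8 and Hspa5 less, to -0.26 and -0.39, and put Hspa9 at -0.63. Hspa8 (HSC70), the constitutive cytosolic HSP70 that also uncoats clathrin vesicles, read 611634 in Control and 532891 in the tumors (-0.20), and its second probe set 2589 and 2502 (-0.05). By their identifiers, the first probe set is unmapped and the second lies on another chromosome than RefSeq gives for Hspa8, so either may read copies of the gene. Hspa5 (BiP), the ER HSP70, read 11210 and 10320 (-0.12). Hspa9 (mortalin), which pulls proteins into the mitochondrial matrix, read 33331 and 33924 (0.03). Hspa13 read 627 and 656 (0.07).

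Hspa1a and Hspa14 were the HSP70 genes that stood apart, in opposite directions. Hspa1a, the stress-inducible HSP70 that is the usual reporter of a heat shock response, read 346 in Control and 134 in the tumors, 2.59-fold lower. Its other probe set read 204 and 185 (-0.14), so the size of the difference depended on the probe set and was -0.76 for the mean of both. RefSeq lists a near-identical neighbour, Hspa1b, that had no probe set of its own symbol alone, and RNA of the copies cannot be told apart. Hspa14, which in human cells forms the ribosome-bound chaperone complex with DNAJC2, read 272 and 508, 1.87-fold higher. Its partner Dnajc2 read 1353 and 1101 (-0.30). The HSP70 class as a whole, with 9 pseudogenes of Hspa8 among its 15 members with a signal, had a median of -0.08, and the pseudogenes ranged from -0.42 to 0.50. Hspa2, Hspa12a, Hspa12b and Hspa1l, the last known from testis, were under 100 on both arrays.

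The 3 HSP110 genes, exchange factors of HSP70, had a median of 0.06 in the deposited signals and of -0.16 after quantile normalization. Hspa4 read 15036 and 15598 (0.05), Hsph1 3625 and 3781 (0.06) and Hspa4l 108 and 120 (0.15).

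Of the 7 small heat shock proteins, only 3 reached a signal of 100. Of these, Hspb1 and Hspb6 were at least 2-fold lower in the tumors (66.7%), against 10.5% of all genes. Hspb1 (HSP27), which binds unfolding proteins and regulates actin filaments, read 916 in Control and 332 in the tumors, 2.76-fold lower. Hspb6 (HSP20), a regulator of smooth muscle relaxation, read 248 and 108, 2.29-fold lower. Hspb8 (HSP22), which works with BAG3 in the clearance of damaged proteins in muscle, read 105 and 70.0. It passed the filter only through Control, and its difference of -0.58 became -0.07 with signals under 100 raised to 100. The class median was -1.19 over these 3 genes, -0.58 with a filter of 32 and -0.17 over all 7 with no filter. The other 4 members, Hspb2, Hspb3, Hspb7 and Hspb9, were under 100 on both arrays, and the related alpha-crystallin gene Cryab, a chaperone of lens and muscle, read 84.8 and 48.1.

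Marker lists of several cell types also differed between the pools, some lower and some higher in the tumors. The summed signal of 10 smooth muscle markers was 57070 in Control and 4734 in the tumors, 12.1-fold lower. All 9 of them with a signal were lower, 7 by both criteria, and Des (desmin) and Cnn1 (calponin) read only 79.3 and 54.6 in the tumors. The sum of 10 fibroblast markers was 160303 and 1865, 86.0-fold lower, with 9 of 10 lower by both criteria. The Control tissue is labelled epithelium, but the methods describe excised bladder tissues for the control rats. These signals show muscle and stromal RNA in the Control pool. The sum of 10 urothelial markers was 1985250 and 568623, 3.49-fold lower, and that of 10 cell cycle markers 2990 and 8805, 2.94-fold higher. Macrophage markers summed to 3561 and 1487, T cell markers to 4135 and 667, endothelial markers to 2829 and 3389, and skeletal muscle markers to 834 and 840. The T cell sum rested mostly on Cd4 (2875 and 239) and Cd3g (864 and 156), while Cd3d, Cd3e, Cd8a and Cd5 were under 100 on both arrays. The endothelial sum held genes of both directions, with Kdr, Vwf and Flt1 at least 2-fold higher and Plvap at least 2-fold lower. The part of tissue composition in the differences of Hspb1, Hspb6 and the other genes was not tested, and in pooled bulk RNA fewer cells of a type and less RNA per cell cannot be told apart.

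**Figure D3:**
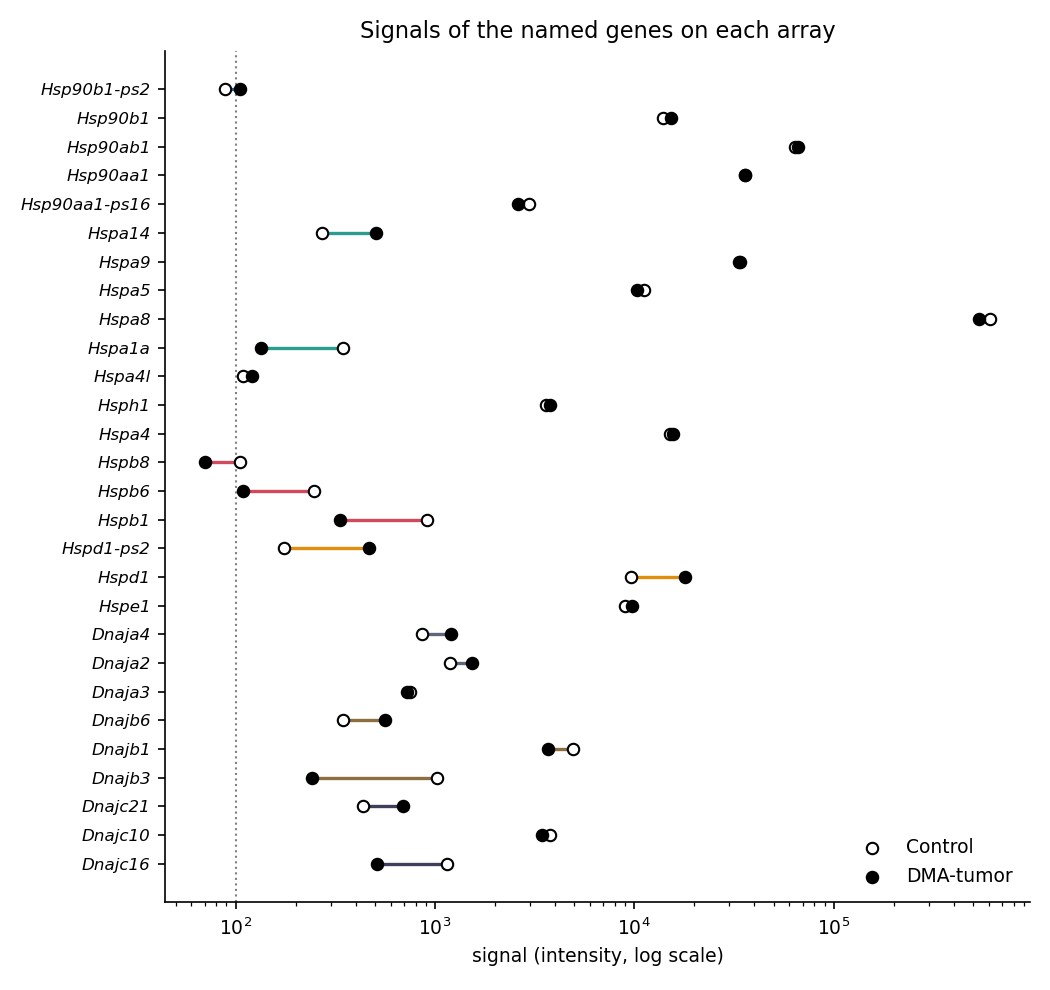
Signal (x axis, intensity on a log scale) of the named genes (y axis, by class) in the Control pool (open circles) and the DMA-tumor pool (filled circles), joined by a line, 1 array each. The dotted line marks a signal of 100. For Hsp90aa1, Hsp90ab1, Hspa9 and Hspa4 the circles nearly coincide, while Hspb1, Hspb6, Hspa1a, Dnajb3 and Dnajc16 lie lower and Hspd1 and Hspa14 higher in the tumors.

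The 2 subunits of the mitochondrial chaperonin differed from each other. Hspd1 (HSP60), the barrel of the chaperonin, read 9592 in Control and 17941 in the tumors, 1.87-fold higher. Its log2 difference of 0.90 became 0.60 after quantile normalization and 0.46 after removal of the loess trend. Hspe1 (HSP10), the lid of the chaperonin, read 9009 and 9687 (0.10), and was at -0.27 after removal of the loess trend. The Hspd1 pseudogenes had the direction of their parent. Hspd1-ps2 read 174 and 468, 2.68-fold higher, Hspd1-ps4 328 and 531 (0.69) and Hspd1-ps5 133 and 181 (0.44). The class median of 0.69 over 5 members therefore rested on Hspd1 and its copies, and Hspd1l2 was under 100 on both arrays. Across 8 members that work in mitochondria the median was 0.05, with Hspd1 the highest and Dnajc30 the lowest.

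Hspd1 and Hspe1 are neighbours that start in opposite directions, and their promoters share a block of heat shock elements. A heat shock element is a row of GAA and TTC units to which heat shock factors bind. RefSeq promoters (250 bases before to 50 after the start, assembly GRCr8) were found for 58 of the 102 members and searched on both strands. The 3-unit element, GAANNTTCNNGAA or TTCNNGAANNTTC, was found in 267 of 33469 rat promoters (0.798%) and in 4 of the 58 (6.9%), those of Hspe1, Hspd1, Hspa8 and Hsph1. The shorter 2-unit form, GAANNTTC or TTCNNGAA, which is part of each 3-unit match, was found in 15.9% of all promoters and in 15 of the 58 (25.9%). Windows around the matches are shown to set genes with small differences beside the lower ones, with the matched letters in capitals. For Hspa8 and Hspb6 only 1 window is shown. Hspa8 also had a 3-unit match that starts at -213, and Hspb6 a 2-unit match that starts at -149.
Hspe1, chr9:64084238-64084303, plus strand, with overlapping 3-unit matches from -65 to -48: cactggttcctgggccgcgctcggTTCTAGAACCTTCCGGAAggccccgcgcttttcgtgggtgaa
Hspa8, chr8:50080435-50080495, plus strand, with a 3-unit match from -55 to -43: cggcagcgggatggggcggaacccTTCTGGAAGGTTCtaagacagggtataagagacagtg
Hsph1, chr12:10427308-10427367, plus strand, with a 3-unit match from -36 to -24: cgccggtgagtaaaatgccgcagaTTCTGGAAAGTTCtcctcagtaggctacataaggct
Hspb1, chr12:26432379-26432454, minus strand, with 2-unit matches from -129 to -102: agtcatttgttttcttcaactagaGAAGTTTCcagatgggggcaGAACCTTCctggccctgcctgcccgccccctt
Hspb6, chr1:94934122-94934164, plus strand, with a 2-unit match from -239 to -232: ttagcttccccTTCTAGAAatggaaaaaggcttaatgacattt
The capitals of Hspe1, read on the other strand, are also those of Hspd1, where they lie from -242 to -225, so the same bases serve as the match in both promoters although the genes differed by 0.10 and 0.90.

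The genes with 3-unit matches had log2 differences of -0.20 (Hspa8), 0.06 (Hsph1), 0.10 (Hspe1) and 0.90 (Hspd1). Hspb1 and Hspb6, with 2-unit matches alone, were at -1.46 and -1.19. The other kept members with 2-unit matches alone were Hspb8 (-0.58), Dnajc27 (-0.47), Dnajb1 (-0.43), Dnajc18 (-0.11), Hspa9 (0.03), Hspa4l (0.15) and Dnajb6 (0.70). Genes with this form alone thus lay on both sides of 0, more of them below it. A match is a run of letters and not a measured binding site.

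Heat shock factors and their classic targets lay on both sides of 0. Hsf1, the main stress-activated factor, read 580 in Control and 547 in the tumors (-0.09). Hsf2, a related factor known from development, read 311 and 637, 2.05-fold higher, and Hsbp1, a small protein that binds the factors, was at -0.63. Of 9 classic heat-inducible members with a signal, none was 2-fold higher and 2 were 2-fold lower (Hspb1 and Hspa1a), against 8.87% and 10.5% of all genes, with a median of 0.06. Hspa1a was not 2-fold lower with its other probe set or with the mean of both. Dnajb1 (HSP40), the main stress-inducible J protein, read 4946 and 3677 (-0.43), and Dnajb4, a close relative, read 1396 and 2082 (0.58). The inducible set was thus spread from -1.46 to 0.90.

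**Figure D4:**
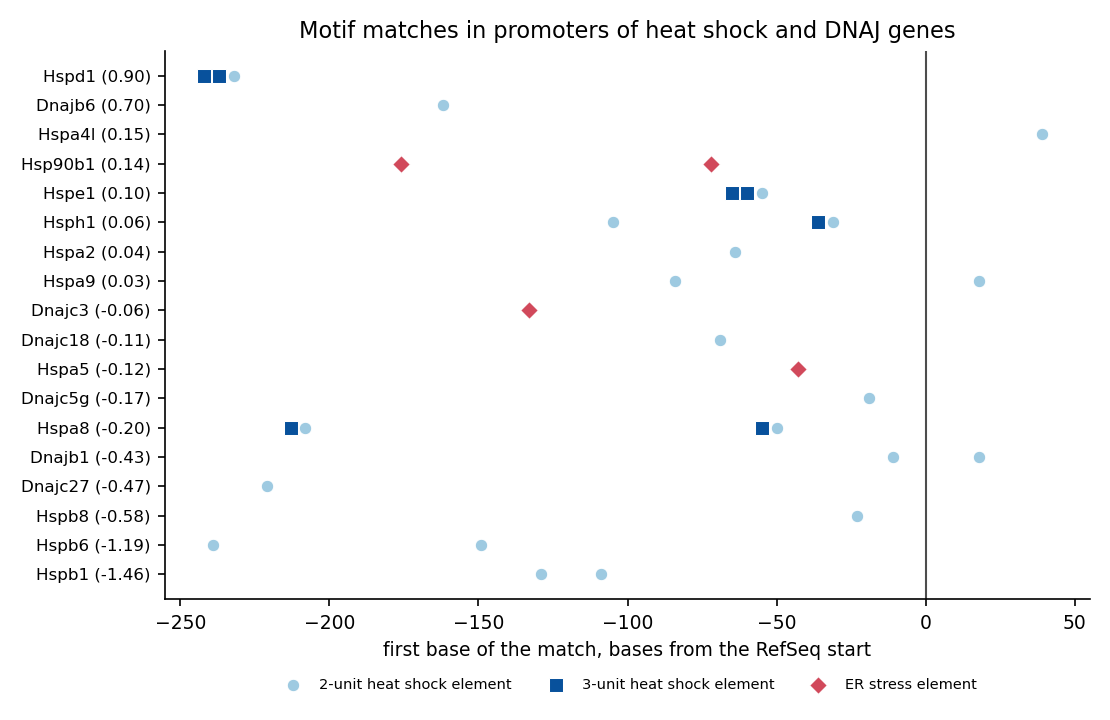
Position of the first base of each motif match (x axis, bases from the RefSeq start) in the promoters of the members that hold one (y axis, ordered by log2 difference, which is given in brackets). Light circles are 2-unit and dark squares 3-unit heat shock elements, and diamonds are ER stress elements. The 3-unit matches belong to Hspd1, Hspe1, Hsph1 and Hspa8, and the lowest genes, Hspb1 and Hspb6, hold 2-unit matches.

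The main ER chaperones Hspa5 and Hsp90b1 differed little between the pools in the deposited signals, whereas other ER proteins lay on both sides of 0. The ER stress element, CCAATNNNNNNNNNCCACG or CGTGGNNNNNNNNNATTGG, is bound by factors of the unfolded protein response. It was found in 22 of all promoters (0.0657%) and in 3 of the 58 (5.17%), those of Hspa5, Hsp90b1 and Dnajc3, which are shown because the element is rare in other promoters.
Hspa5, chr3:38452949-38453015, plus strand, match from -43 to -25: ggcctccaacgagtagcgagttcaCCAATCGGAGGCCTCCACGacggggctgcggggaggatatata
Hsp90b1, chr7:23012427-23012493, minus strand, the farther of 2 matches, from -176 to -158: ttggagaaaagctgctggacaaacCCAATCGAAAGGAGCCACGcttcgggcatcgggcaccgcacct
Dnajc3, chr15:102432510-102432576, plus strand, match from -133 to -115: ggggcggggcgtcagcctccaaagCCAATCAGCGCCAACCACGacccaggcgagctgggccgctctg
Capitals mark the match. The log2 differences of the 3 genes were -0.12, 0.14 and -0.06. Dnajc3 (p58IPK), a BiP cochaperone that also restrains the eIF2alpha kinases, read 1591 and 1522, and Dnajc10, a J protein with disulfide reductase activity, 3756 and 3435 (-0.13). Dnajb9 (ERdj4) read 208 and 201 (-0.05) and Dnajb11 (ERdj3) 730 and 941 (0.37). Over 12 ER-located members the median was -0.09, and 1 of them (8.33%), Dnajc16, was 2-fold lower, against 10.5% of all genes. Among 11 lectin chaperones and disulfide isomerases of the ER the median was -0.07. Erp29 read 113 and 299 (1.41) and was the 1 gene of them (9.09%) past 2-fold, against 8.87% higher and 10.5% lower among all genes. P4hb (protein disulfide isomerase) was at 0.76, Txndc5 at -0.60, and Sdf2l1, a partner of BiP and Dnajb11, read 109 and 73.3.

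The DNAJ cochaperones were spread more widely than HSP90. In the DNAJA class, which has the domain plan of bacterial DnaJ, Dnaja2 read 1196 and 1543 (0.37), Dnaja4 857 and 1209 (0.50) and the mitochondrial Dnaja3 754 and 724 (-0.06). A signal shared by Dnaja1 and a microRNA symbol read 1459 and 1575 (0.11) and was not counted. The DNAJB class had 12 members with a signal, a median of 0.00 and the widest range, from -2.08 to 0.70. Dnajb6, which holds back aggregation of polyglutamine proteins, read 346 and 562 (0.70), and Dnajb12, of the ER membrane, 2495 and 1761 (-0.50). Dnajb2 was at -0.44, Dnajb5 at -0.03, Dnajb14 at 0.04, Dnajb6-ps4 at 0.46 and Dnajb6-ps10 at 0.51.

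Dnajb3 had the largest difference of the members that were lower. It is a J protein known from mouse sperm cells, and its probe set read 1019 in Control and 242 in the tumors, 4.22-fold lower. RefSeq places Dnajb3 inside the Ugt1a locus of glucuronosyltransferases, on the opposite strand. The probe set shared by the Ugt1a transcripts read 2705 and 3669 (0.44). That of Ugt1a6 read 44.5 and 74.4, under 100 on both arrays. Whether either bears on the signal of Dnajb3 was not tested.

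The DNAJC class, whose members share little beyond the J domain, had 24 members with a signal and a median of -0.02. Dnajc16, a J protein of the ER membrane, read 1143 and 514, 2.22-fold lower. The gene Agmat, which overlaps it on the opposite strand, read 36.8 and 37.3. Next in order were Dnajc4 (657 and 387, -0.76), Dnajc30 of the mitochondria (588 and 370, -0.67) and Dnajc11, also mitochondrial (1015 and 639, -0.67). At the other end, Dnajc21, which acts in the assembly of the large ribosomal subunit, read 436 and 692 (0.67). The differences of these 4 genes lay within the span of the silent receptor genes except for Dnajc21, which was above it. All other DNAJC members with a signal, Dnajc2, Dnajc3 and Dnajc10 among them, lay between -0.47 (Dnajc27) and 0.20 (Dnajc17). In the DNAJ classes, 8 members were under 100 on both arrays, among them Dnajb13 of sperm flagella and cilia (82.4 and 45.6) and Dnajc6 (auxilin), known from neurons.

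Partners of the chaperones were taken as lists, whose counts past 2-fold stand against 8.87% higher and 10.5% lower among all genes. Of 20 HSP90 cochaperones the median was 0.05, none was 2-fold higher and 1 was 2-fold lower. That gene was Unc45a, a chaperone of myosin, with 731 and 361 (-1.02). Chordc1 read 2037 and 3760 (0.88), Ahsa2, related to an activator of the HSP90 ATPase, was at 0.68, and the immunophilin Fkbp5 at -0.66. Of 13 exchange factors and cochaperones of HSP70 the median was -0.17, and 1 was 2-fold lower, the ubiquitin ligase Stub1 (CHIP), with 449 and 218 (-1.04). Bag6 read 3662 and 2028 (-0.85), Bag1 was at -0.66 and the mitochondrial Grpel2 at 0.65. Of 12 subunits of the cytosolic chaperonin TRiC and of prefoldin, which hands it new actin and tubulin, none was past 2-fold and the median was 0.00. The largest differences among these were those of Pfdn6 (-0.94), Cct3 (-0.59), Cct6a (0.38) and Pfdn2 (-0.30).

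**Figure D5:**
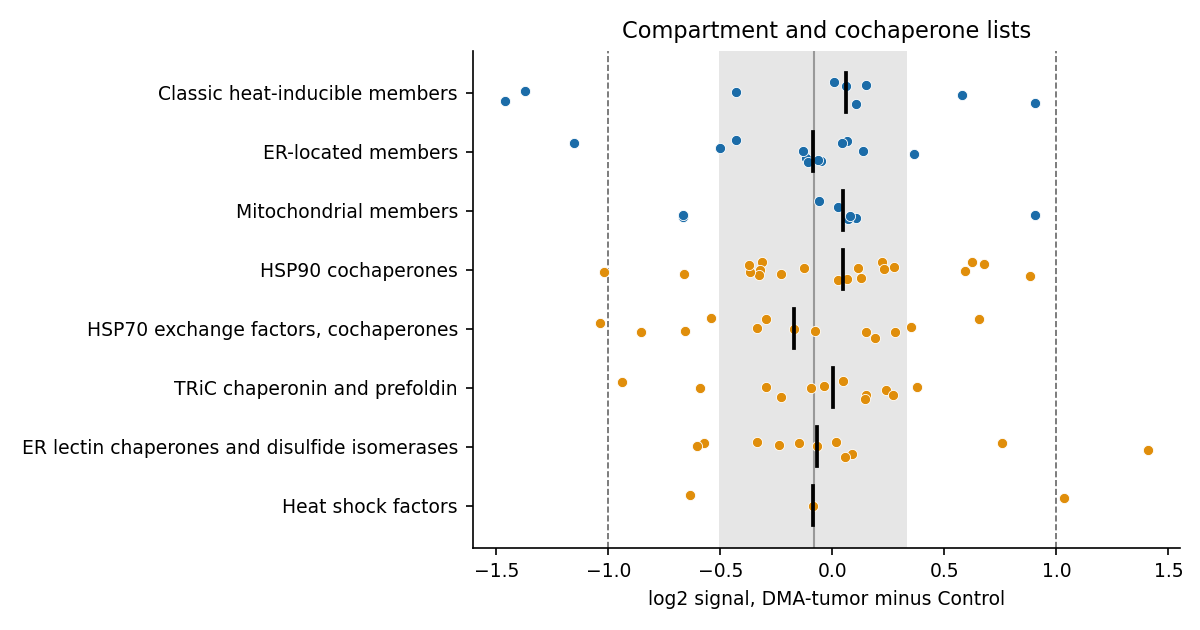
Log2 signal, DMA-tumor minus Control (x axis), of the genes of each compartment and cochaperone list (y axis), 1 array per group. Blue points are members, orange points other genes, black bars medians, and the grey line and band the median and quartiles of all genes. Every median lies between -0.17 and 0.06, and dashed lines mark 2-fold, passed by 3 members (Hspb1, Hspa1a and Dnajc16) and 4 other genes (Unc45a, Stub1, Erp29 and Hsf2).

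For genes with high signals the direction of a small difference depended on scaling. The deposited signals were used as given, and the 99th percentiles of the arrays were 83299 and 171248. After quantile normalization Hsp90ab1 was at -0.85 and Hsp90aa1 at -0.63, and after removal of a loess trend over all probe sets Hspa8 was at -1.45, Hsp90ab1 at -0.73, Hsp90b1 at -0.33 and Hspe1 at -0.27. The HSP90 median became -0.20 under the former and -0.18 under the latter. The median of all genes shifted by -0.26 and -0.11 under the same settings. At the ratio of 2, 1071 genes were higher and 1271 lower as deposited (45.7% higher), and 777 and 1982 after quantile normalization (28.2% higher). Probe sets with and without a gene symbol differed in this trend. At mean signals of at least 10000, 2510 with none listed had a median difference of 1.12 and 742 with 1 symbol a median of -0.15. Hspd1 remained higher, but by less than the 0.90 of the deposited signals (0.60 and 0.46). Hspb1, Hspb6, Hspa1a, Dnajb3 and Dnajc16 remained 2-fold lower under both.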

How the data were processed

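RNA pooled per group was hybridised to 1 array each. The authors deposited a linear intensity for each probe set. Per the labels, whole-transcript labelling was used, and Affymetrix Expression Console 1.4.1 with RMA is listed in the submitters' processing notes. The methods name a 3'-based array, median normalization and removal of signals under 100, but the table holds transcript clusters and signals under 100, so the normalization is unsettled. There were 0 columns of other series.

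Of 68842 probe sets, 23446 had 1 symbol in the platform annotation, 505 had several and 44891 had none listed. The probe set with the highest mean log2 signal represented each gene, which for the 3 members with 2 probe sets left the other one as an alternative. All 102 members were found in the RefSeq gene table. Genes that reached a signal of 100 on either array were kept, and log2 signals were subtracted, DMA-tumor minus Control, with no further normalization. The Z-score was taken over all kept genes, with an SD of 1.02. No test was possible, and counts of members are set beside those of all kept genes. Members and lists were chosen with earlier results of these data known.

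Named were members past 2-fold, the extremes and the highest signal of each class, well-known chaperones, and up to 4 genes with the largest differences per partner list. Other genes were named to complete a role or a pair after their values were seen. The fold step was tested on simulated data. Proteins were not analysed here. Alternatives were other filters (none, 100 on both arrays, or 32 on 1), centring, a loess trend (span 0.3), quantile normalization, the mean of probe sets, signals raised to 100 and a ratio of 1.5, and, chosen after seeing the data, protein-coding members alone and the other probe sets. Scripts ran in Python 3.11.15 with pandas 2.3.3, numpy 2.4.6, matplotlib 3.10.9 and statsmodels 0.14.6.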

Additional observations from a re-analysis of the deposited data

Results flagged for a closer look

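Probe sets that carry several symbols were left out of the comparison, and for 2 cochaperones these held a clear signal. The probe set shared by Dnaja1, a cytosolic J protein of the DNAJA class, and Mir207 read 1459 in Control and 1575 in the tumors, a log2 difference of 0.11. The probe set shared by Dnajc8, a J protein of the nucleus, and Mir3583 read 727 and 790 (0.12). Both differences were below the SD of 0.34 of the silent receptor genes, which does not give the error of genes with high signals.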

How the results depend on the processing

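Of the counts, class medians and list medians under the alternatives, 191 stayed within the SD of the silent receptor genes (counts within 1.5 times) of the main value and 13 moved further. Among medians, a change of sign was scored only for the small HSP median, the one past 2-fold, which stayed below 0. Smaller medians did change sign. At their lowest, HSP90 was at -0.20, HSP110 at -0.16, the heat-inducible members at -0.27 and all members at -0.24. 1 member, Dnajb3, was lower by both criteria with no filter, with a filter of 100 on both arrays, with a filter of 32 on 1 array and with signals raised to 100, against 0 in the main setting. The small HSP median was -0.17 with no filter and -0.58 with a filter of 32, where genes under 100 on both arrays entered it. The number of members at least 2-fold lower was 8 after loess, which added Hspa8, Hspa8-ps12 and Hspa8-ps25, and 8 after quantile normalization, which added Hspa8-ps12, Hspa8-ps23 and Hspa8-ps25. The HSP70 median was -0.52 after loess and that of the ER lectin and isomerase list -0.43 after quantile normalization, and the cause was not tested. With a ratio of 1.5 alone, 6 members were higher and 8 lower, against 16.7% and 21.5% of all genes. With protein-coding members alone, 0 were 2-fold higher, since Hspd1-ps2 is a pseudogene. With the mean of probe sets or the other probe sets 4 were lower, without Hspa1a. No paired analysis was possible because each group had 1 array. The 2 pools and signals near 100 limit what can be said of Hspb6, Hspb8 and Hspa1a.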
